A study of Mus musculus with 20 samples.

Results

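The 37 genes described here encode fatty acid oxidation enzymes and other targets of PPAR-alpha, and were taken from the gene table by name, with no threshold on a measured value. They are 37 of 38784 symbols in the table, and all 37 had enough counts to be tested in both assays. They were measured in the livers of FVB/N mice that were 6 to 8 weeks old and received siRNA in lipid nanoparticles (LNP) by tail vein at 0.5 mg/kg, with 1 injection in 5 days. One siRNA targeted Eif3m, the gene of subunit m of eIF3, a complex that brings mRNA and the small ribosomal subunit together when translation starts. The control siRNA was scrambled luciferase. Livers were taken at day 13 (2 mice given Eif3m siRNA and 2 given control siRNA) or at day 9 (3 and 3). Each of the 10 mice gave 1 ribosome footprint library and 1 RNA library, so 20 libraries fell into 8 groups. Every mouse received nanoparticles, and the tissue was ground whole liver, so all liver cell types contribute.

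Ribosome profiling sequences the mRNA fragments that ribosomes protect, so a footprint count follows both the amount of an mRNA and how densely ribosomes occupy it. The footprint libraries were made with ART-seq on both days, whereas the RNA libraries were made with NeoPrep at day 13 and with KAPA mRNA capture at day 9. For RNA, kit and day therefore cannot be told apart. Total counts were 1.64 to 6.52 M in the day 13 footprint libraries, 4.50 to 7.69 M in the day 9 footprint libraries, 4.96 to 26.4 M in the day 13 RNA libraries and 27.4 to 39.0 M in the day 9 RNA libraries. Levels are given as CPM, counts scaled to a common library size, and genes were called by edgeR's quasi-likelihood test where the p adjusted over all genes tested (Benjamini-Hochberg) was below 0.05. Eif3m footprints averaged 4.09 ± 2.31 CPM in Eif3m siRNA livers and 77.7 ± 1.59 CPM in control livers at day 13 (SD, n = 2 each), and 6.19 ± 0.543 CPM in Eif3m siRNA livers and 76.0 ± 2.54 CPM in control livers at day 9 (SD, n = 3 each). Its RNA was lower as well, with log2 changes of −4.01 at day 13 and −3.27 at day 9 (edgeR adjusted p = 9.6e-07 and 5.5e-07).

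PPAR-alpha is a nuclear receptor that binds fatty acids and, together with the retinoid X receptor, raises the transcription of genes for fatty acid uptake, activation and oxidation in the fasted liver. Long-chain fatty acids are bound to coenzyme A, passed into mitochondria by the carnitine shuttle, and shortened in cycles of dehydrogenation, hydration, a further dehydrogenation and thiolysis. Peroxisomes shorten very long chains, microsomal cytochromes P450 of the Cyp4a family start oxidation from the far end of the chain, and acyl-CoA thioesterases release free fatty acids again.

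The receptor pair binds 2 copies of a hexamer separated by 1 base, so the promoters of the 37 genes were searched for this arrangement in RefSeq windows of 300 bases on GRCm38.p6, 250 before to 50 after a start. Windows were at hand for 31 of the 37 genes (33 windows). There was none for Acaa2, Decr1, Cyp4a10, Cyp4a14, Angptl4 and Vnn1, so these genes were not searched. On either strand, 2 copies of AGGTCA with any base (N) between them were in 0 of the 33 windows and in 13 of all 32851 windows (0.0396%). A looser form that includes the stricter one, NGGNCA then any base then AGGNCA, was in 2 of the 33 (6.06%) and in 262 of all 32851 (0.798%). These belong to Fabp1, the fatty acid binding protein of the hepatocyte cytosol, and Acot4, a peroxisomal thioesterase acting on short dicarboxylic acyl-CoAs. Both genes fell after Eif3m siRNA in at least 1 footprint comparison, as did Hadh, Ehhadh and Aldh3a2, whose windows held no match. The footprint calls of Fabp1 and Acot4 depended on the libraries included, as described below. Any link between the matches and these changes was not tested. The 120 bases before the start of Fabp1 and of Acot4 are shown with the 13 matching bases in capitals. The match lies 67 to 55 bases before the start in Fabp1 and 13 to 1 bases before it in Acot4, and in both it reads along the opposite strand. A match is a run of letters and was not tested as a binding site.
Fabp1, chr6:71199759-71199878, plus strand: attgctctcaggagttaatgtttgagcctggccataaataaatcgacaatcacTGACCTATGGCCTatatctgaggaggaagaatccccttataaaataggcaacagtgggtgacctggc
Acot4, chr12:84038259-84038378, plus strand: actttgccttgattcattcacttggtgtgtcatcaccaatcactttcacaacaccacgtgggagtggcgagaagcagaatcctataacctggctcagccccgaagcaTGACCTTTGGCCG

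After Eif3m siRNA, genes at several steps of oxidation fell, while 22 to 30 of the 37 did not pass in each comparison. In footprints, 8 of the 37 genes fell and 0 rose at day 13, against 6.26% of all 12213 genes called lower and 6.12% called higher. At day 9, 7 fell and 1 rose, against 7.90% of all genes called lower and 6.84% called higher. In RNA, 14 fell and 1 rose at day 13, against 9.87% and 6.09% of all 16444 genes, and 6 fell and 1 rose at day 9, against 3.19% and 2.48%. As shares of the 37, those that fell made up 21.6% and 18.9% in footprints and 37.8% and 16.2% in RNA, each pair given as day 13 then day 9. The median log2 change of the 37 was −0.28 in footprints at day 13 and −0.27 at day 9, beside medians over all tested genes of 0.02 on both days. In RNA it was −0.40 at day 13, beside −0.16 over all tested genes, and −0.26 at day 9, beside −0.00.

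The counts depended on the scaling. With library totals in place of TMM factors, the median over all genes was 0.34 in day 13 footprints, 0.25 in day 9 footprints, 0.00 in day 13 RNA and 0.12 in day 9 RNA. The medians of the 37 were then 0.04, −0.05, −0.20 and −0.13, so the day 13 footprint median changed sign while staying below that of all genes. In day 13 footprints 4 of the 37 were then called lower (10.8%) and 1 higher (2.70%), against 2.87% and 16.4% of all genes. In day 9 footprints 4 were lower (10.8%) and 3 higher (8.11%), against 3.69% and 18.8%. In both directions together the called share of the 37 was then below that of all genes in footprints, at 13.5% against 19.3% at day 13 and 18.9% against 22.5% at day 9. In day 13 RNA 13 were lower (35.1%) and 1 higher (2.70%), against 6.17% and 9.15% of all genes, and in day 9 RNA 5 were lower (13.5%) and 2 higher (5.41%), against 2.21% and 5.36%.

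**Figure D1:**
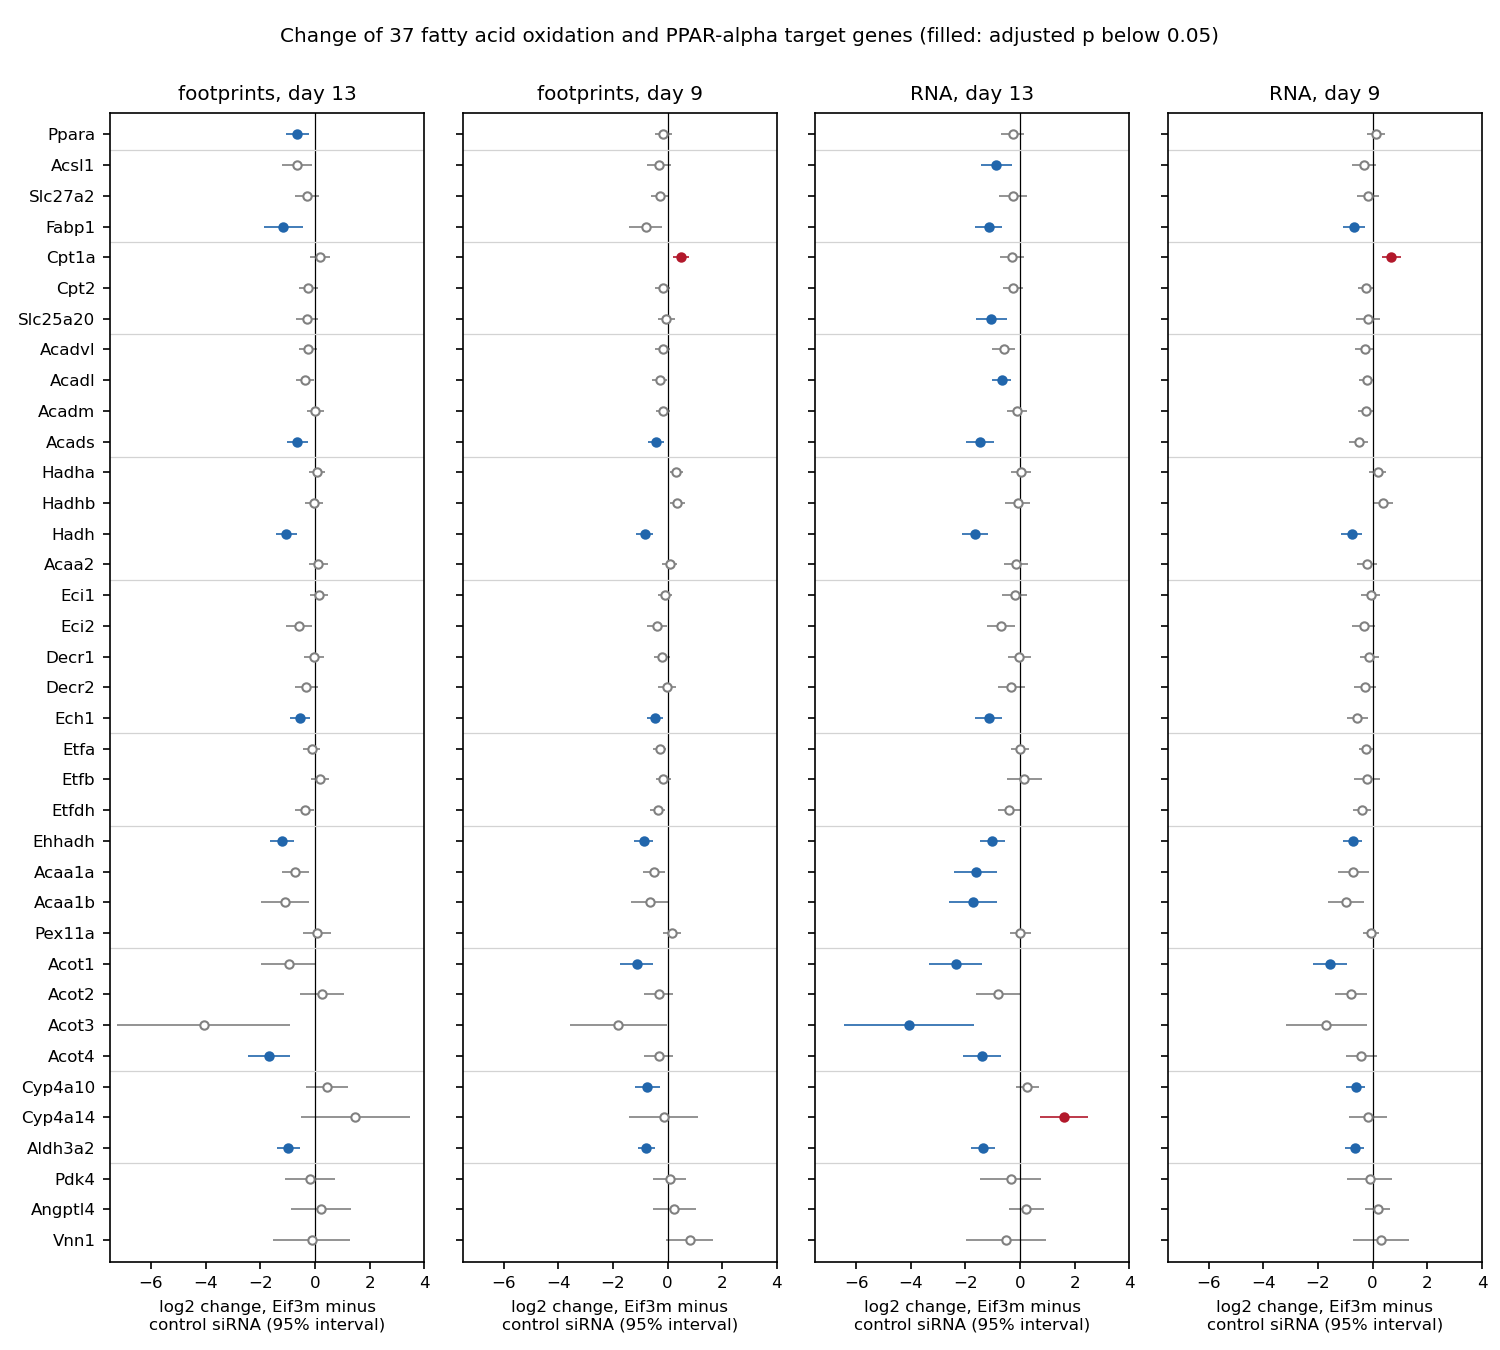
Log2 change of each of the 37 genes, Eif3m minus control siRNA, with 95% intervals (x axis) in footprints and RNA at each day, ordered by role with grey lines between roles. Filled points passed an adjusted p of 0.05 (blue lower, red higher), and Hadh, Ehhadh and Aldh3a2 are the 3 genes that are blue in all 4 panels.

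Of the 37 genes, 16 fell in at least 1 of the 4 within-day comparisons, 2 rose in at least 1 (Cpt1a and Cyp4a14), and 19 passed in none. Those that fell in all 4 were Hadh, Ehhadh and Aldh3a2. Footprint calls of lower genes at the 2 days shared 5 members (Hadh, Ehhadh, Aldh3a2, Ech1 and Acads), which is 62.5% of the day 13 list and 71.4% of the day 9 list. At day 13, 7 genes were lower in both footprints and RNA, 87.5% of the footprint list and 50% of the RNA list. At day 9, 5 were lower in both, 71.4% of the footprint list and 83.3% of the RNA list. Without a test, groups that did not overlap with Eif3m siRNA lower were seen for 21 of the 37 genes in day 13 footprints, 13 in day 9 footprints, 20 in day 13 RNA and 20 in day 9 RNA. The shares over all tested genes were 27.1%, 16.3%, 29.1% and 20.3%.

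Ppara itself, the receptor gene, had 69.3 and 89.0 footprint CPM in the day 13 Eif3m siRNA livers, against 128 and 123 CPM in the day 13 control livers. At day 9 the footprints were 273, 179 and 242 CPM in Eif3m siRNA livers, against 265, 289 and 218 CPM in controls. The groups were apart at day 13 and overlapped at day 9. Footprints fell by 0.64 on the log2 scale at day 13 (SE 0.20, edgeR adjusted p = 0.042), and the day 9 value was −0.16 (SE 0.15, adjusted p = 0.53). Ppara RNA did not pass on either day, at −0.28 and 0.13 (adjusted p = 0.35 and 0.69). Leaving out any 1 of the 4 footprint libraries of day 13 ended the day 13 call, and so did the fits without day 9 control replicate 1 or Eif3m replicate 3 (adjusted p up to 0.27), with library totals (adjusted p = 0.29) and with replicate numbers as a block (adjusted p = 0.066).

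Among the 3 genes of fatty acid uptake and activation, Fabp1 had the largest fall. Its footprints were 2552 and 1656 CPM in the day 13 Eif3m siRNA livers, against 5734 and 3613 CPM in controls. At day 9 they were 5555, 3109 and 5556 CPM in Eif3m siRNA livers, against 8541, 8281 and 7994 CPM in controls. Every Eif3m siRNA liver was below every control of its day. The log2 change in footprints was −1.15 at day 13 (SE 0.32, adjusted p = 0.049) and −0.80 at day 9 (SE 0.26, adjusted p = 0.074), so only the day 13 value passed, and it was lost without any 1 of 7 of the 10 footprint libraries (adjusted p up to 0.28). Those 7 were day 13 control replicate 1 and Eif3m replicate 2, and the day 9 libraries other than Eif3m replicate 2. The day 13 footprint call was also lost with DESeq2 size factors (adjusted p = 0.053) or library totals (adjusted p = 0.076). The day 9 footprint change did pass in DESeq2, with no filter, with day 9 fitted alone and with replicate numbers as a block. Fabp1 RNA stood at 349 and 294 CPM in Eif3m siRNA livers and 723 and 702 CPM in controls at day 13. At day 9 it was 3376, 2043 and 3386 CPM in Eif3m siRNA livers and 5084, 4631 and 4367 CPM in controls. Here too the groups were apart on both days, with log2 changes of −1.15 at day 13 (SE 0.23, adjusted p = 0.0057) and −0.68 at day 9 (SE 0.18, adjusted p = 0.049). The day 13 RNA call was lost without Eif3m replicate 2 (adjusted p = 0.054), and the day 9 call without any 1 of the 3 day 9 controls, day 9 Eif3m replicates 1 and 2, or the 2 day 13 Eif3m libraries (adjusted p up to 0.13) and with the replicate block (adjusted p = 0.059).

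Acsl1, the main hepatic long-chain acyl-CoA synthetase, had 513 and 467 footprint CPM in the day 13 Eif3m siRNA livers, against 909 and 632 CPM in controls, and its RNA was 542 and 418 CPM in Eif3m siRNA livers, against 1091 and 666 CPM in controls. At day 9 its footprints were 918, 488 and 722 CPM in Eif3m siRNA livers, against 974, 908 and 765 CPM in controls. The groups were apart at day 13 and overlapped at day 9. The call was in day 13 RNA alone, at −0.87 (SE 0.26, adjusted p = 0.037). Without any 1 of day 13 control replicate 1, the 2 day 13 Eif3m libraries, the 3 day 9 controls or day 9 Eif3m replicate 3, that value ran from −1.20 to −0.47 over the libraries left out and no longer passed (adjusted p up to 0.22). It also did not pass with library totals (adjusted p = 0.061) or with day 13 fitted alone (adjusted p = 0.072). The other changes of Acsl1 were −0.65 and −0.32 in footprints and −0.31 in day 9 RNA. Slc27a2, a fatty acid transporter with very-long-chain acyl-CoA synthetase activity, did not pass in any comparison, with log2 changes between −0.29 and −0.17.

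In the carnitine shuttle, 1 gene rose, 1 fell and 1 passed in no comparison. Cpt1a, the liver carnitine palmitoyltransferase of the outer mitochondrial membrane and the main control point of entry, had 452, 321 and 448 footprint CPM in the day 9 Eif3m siRNA livers, against 313, 306 and 249 CPM in controls. Day 13 footprints were 253 and 245 CPM in Eif3m siRNA livers, against 226 and 217 CPM in controls. In both cases the lowest Eif3m siRNA liver stood above the highest control. Footprints rose by 0.49 on the log2 scale at day 9 (SE 0.14, adjusted p = 0.021), and the day 13 value was 0.17 (SE 0.18, adjusted p = 0.61).

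Cpt1a RNA went the same way at day 9, with 304, 228 and 297 CPM in Eif3m siRNA livers, against 177, 183 and 159 CPM in controls. At day 13 it was 50.1 and 51.3 CPM in Eif3m siRNA livers, against 73.4 and 50.3 CPM in controls. The groups were apart at day 9 and overlapped at day 13. The RNA rise was 0.68 at day 9 (SE 0.16, adjusted p = 0.026), beside −0.29 at day 13 (SE 0.20, adjusted p = 0.36). The difference between the days was −0.97 in RNA (SE 0.26, edgeR adjusted p = 0.082) and −0.32 in footprints (SE 0.22, adjusted p = 0.60), and neither passed. The footprint call at day 9 was lost without control replicate 3 or Eif3m replicate 3 (adjusted p up to 0.11), and the RNA call without any 1 of the 6 day 9 RNA libraries other than Eif3m replicate 2 (adjusted p up to 0.11). It was also lost when replicate numbers were used as a block.

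Slc25a20, the carrier that exchanges acylcarnitine for carnitine across the inner membrane, had 20.5 and 15.8 RNA CPM in the day 13 Eif3m siRNA livers, against 49.5 and 26.7 CPM in controls. Its day 13 footprints were 109 and 107 CPM in Eif3m siRNA livers, against 139 and 124 CPM in controls. Both assays showed groups apart, and only the RNA change passed, at −1.05 (SE 0.27, adjusted p = 0.019). That call was lost without control replicate 1 or either Eif3m library of day 13 (−1.43 to −0.53 over the libraries left out, adjusted p up to 0.13). At day 9 the footprints overlapped, at 133, 84.5 and 108 CPM in Eif3m siRNA livers and 106, 129 and 103 CPM in controls. Cpt2, the inner-membrane transferase, did not pass in any comparison, with log2 changes between −0.26 and −0.18.

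**Figure D2:**
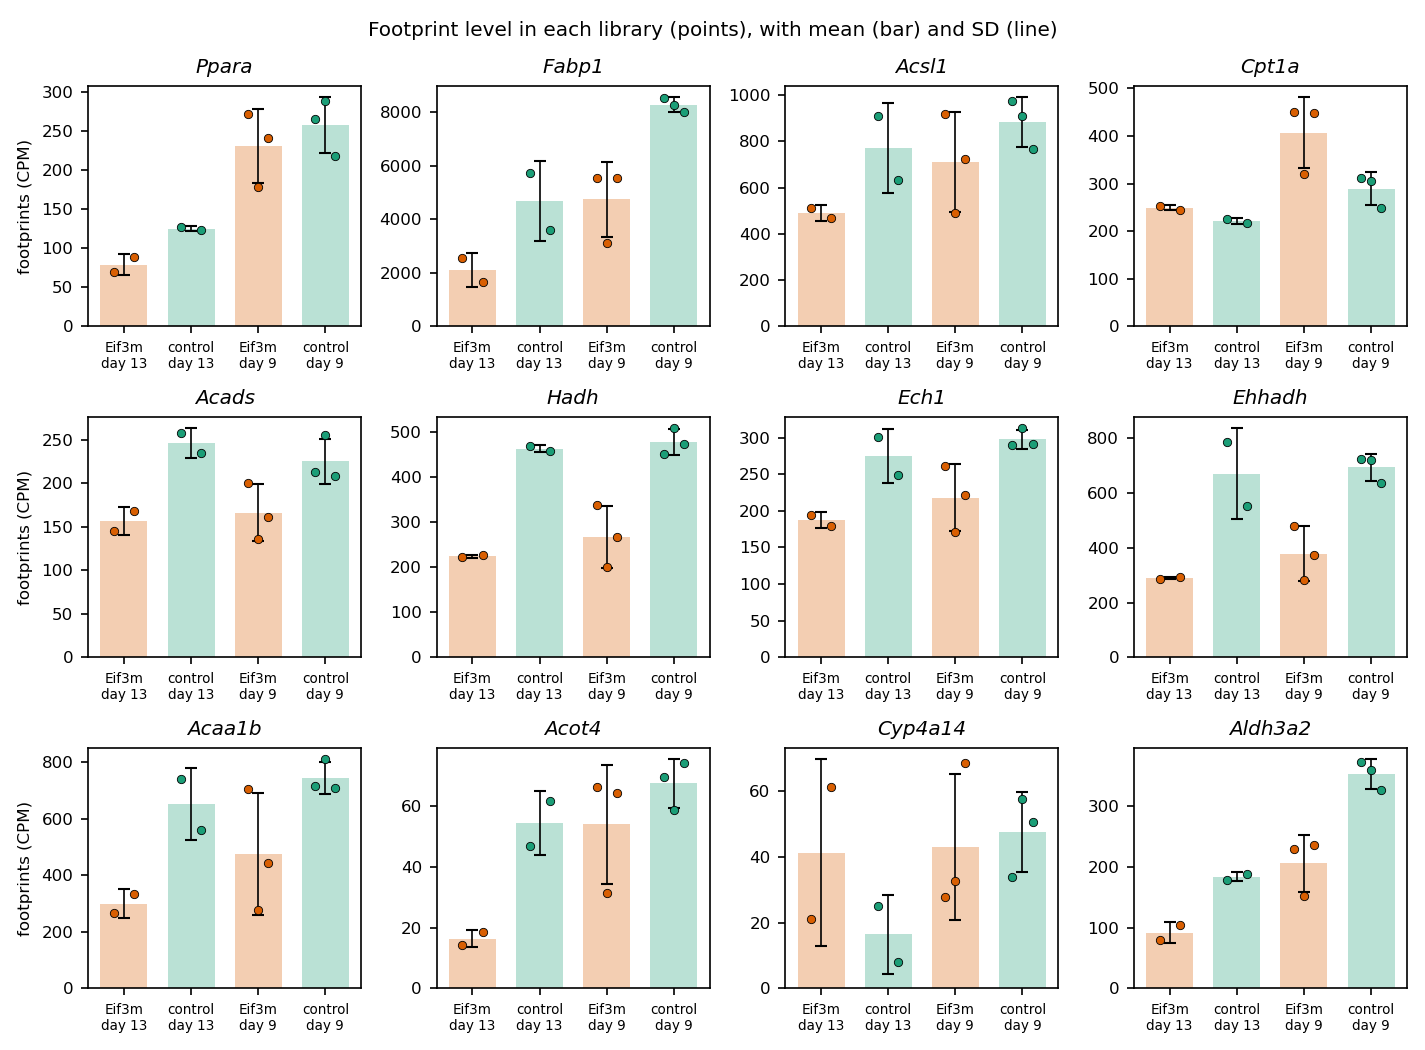
Footprint CPM (y axes, from 0) of 12 genes in every library, with bars for the group mean and lines for the SD (n = 2 per day 13 group and 3 per day 9 group). In Hadh, Ehhadh and Aldh3a2 the Eif3m siRNA points lie below all control points of the same day, in Cpt1a they lie above them, and in Cyp4a14 the groups overlap.

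Of the 4 acyl-CoA dehydrogenases, which take the first electrons from the chain, the short-chain enzyme Acads fell in 3 comparisons. Acads footprints were 145 and 168 CPM in the day 13 Eif3m siRNA livers, against 258 and 234 CPM in controls. At day 9 they were 201, 137 and 162 CPM in Eif3m siRNA livers, against 213, 255 and 209 CPM in controls. All Eif3m siRNA values were below all controls of the same day, with log2 changes of −0.64 at day 13 (SE 0.18, adjusted p = 0.021) and −0.44 at day 9 (SE 0.14, adjusted p = 0.040). Leaving out any 1 of the 4 libraries of day 13 ended that day's call (adjusted p up to 0.16), and the day 9 call was lost without any 1 of the 10 footprint libraries other than day 9 Eif3m replicate 1 (adjusted p up to 0.20). Library totals ended both calls (adjusted p = 0.23 and 0.29), and a minimum mean of 5 CPM, DESeq2, day 9 fitted alone and the replicate block each ended the day 9 call (adjusted p = 0.052 to 0.075).

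Acads RNA was 5.29 and 5.26 CPM in the day 13 Eif3m siRNA livers, against 18.1 and 11.3 CPM in controls, and 137, 109 and 135 CPM in the day 9 Eif3m siRNA livers, against 192, 183 and 170 CPM in controls. Both days showed groups apart. The log2 change was −1.48 at day 13 (SE 0.24, adjusted p = 0.0017), and this call held without any 1 of the 10 RNA libraries. The day 9 value was −0.52 (SE 0.16, adjusted p = 0.079). The day 13 RNA level was low in the controls too, a kit or day difference described below.

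Acadl, the long-chain dehydrogenase, had 119 and 100 RNA CPM in the day 13 Eif3m siRNA livers, against 174 and 178 CPM in controls. Its footprints were 238 and 209 CPM in Eif3m siRNA livers, against 303 and 273 CPM in controls on that day. At day 9 the footprints were 305, 253 and 306 CPM in Eif3m siRNA livers, against 339, 395 and 323 CPM in controls. No Eif3m siRNA liver reached a control liver of its day, but only day 13 RNA passed, at −0.68 (SE 0.16, adjusted p = 0.014). That call was lost without day 13 Eif3m replicate 2 (adjusted p = 0.081) and when day 13 was fitted alone. Acadvl, the very-long-chain enzyme, and Acadm, the medium-chain enzyme, did not pass in any comparison. Their log2 changes ran from −0.60 to −0.18 and from −0.24 to 0.01, with the lowest Acadvl value in day 13 RNA (adjusted p = 0.058).

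Of the 4 genes for the later steps of the mitochondrial cycle, 1 fell. Hadh encodes the soluble 3-hydroxyacyl-CoA dehydrogenase of medium and short chains, and was the gene with the smallest adjusted p of the 37 in 3 of the 4 comparisons. Hadh footprints were 221 and 226 CPM in the day 13 Eif3m siRNA livers, against 467 and 457 CPM in controls. At day 9 they were 336, 199 and 266 CPM in Eif3m siRNA livers, against 450, 507 and 471 CPM in controls. The groups were far apart on both days, and the log2 change was −1.05 at day 13 (SE 0.19, adjusted p = 0.00083) and −0.83 at day 9 (SE 0.15, adjusted p = 0.00071). Hadh RNA was 52.3 and 45.9 CPM in the day 13 Eif3m siRNA livers, against 184 and 124 CPM in controls. At day 9 it was 204, 140 and 206 CPM in Eif3m siRNA livers, against 304, 319 and 309 CPM in controls. These groups were apart as well, with log2 changes of −1.64 at day 13 (SE 0.22, adjusted p = 0.00055) and −0.76 at day 9 (SE 0.18, adjusted p = 0.024). Both footprint calls and the day 13 RNA call held without any 1 library of the assay, while the day 9 RNA call was lost without control replicate 2, control replicate 3 or Eif3m replicate 2 (adjusted p up to 0.086).

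Hadha and Hadhb, the neighbouring genes for the alpha and beta subunits of the mitochondrial trifunctional protein, which carries out these reactions on long chains, passed in no comparison. In day 13 footprints Hadha averaged 484 ± 9.91 CPM in Eif3m siRNA livers and 464 ± 8.80 CPM in controls (SD, n = 2 each), and Hadhb averaged 344 ± 56.2 CPM in Eif3m siRNA livers and 351 ± 33.0 CPM in controls. In day 9 footprints Hadha averaged 747 ± 55.9 CPM in Eif3m siRNA livers and 602 ± 23.2 CPM in controls (SD, n = 3 each), and Hadhb 529 ± 63.8 CPM in Eif3m siRNA livers and 412 ± 31.7 CPM in controls. The day 9 log2 changes of 0.31 and 0.36 did not pass (edgeR adjusted p = 0.071 and 0.070). Both passed with library totals and with a minimum mean of 5 CPM. Hadha also passed without day 9 Eif3m replicate 2, and Hadhb without day 9 Eif3m replicate 1. In day 9 RNA Hadhb passed with library totals and with day 9 fitted alone. Acaa2, the mitochondrial thiolase, did not pass in any comparison, with log2 changes between −0.21 and 0.13.

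Among the 5 auxiliary enzymes for unsaturated chains, Ech1, a dienoyl-CoA isomerase, was the only one called. Ech1 footprints were 195 and 180 CPM in the day 13 Eif3m siRNA livers, against 301 and 249 CPM in controls. At day 9 they were 262, 171 and 222 CPM in Eif3m siRNA livers, against 290, 313 and 291 CPM in controls. The groups were apart on both days, with changes of −0.56 at day 13 (SE 0.18, adjusted p = 0.045) and −0.45 at day 9 (SE 0.14, adjusted p = 0.035). In RNA the values were 48.5 and 39.8 CPM in the day 13 Eif3m siRNA livers, against 119 and 78.7 CPM in controls, and 217, 145 and 202 CPM in the day 9 Eif3m siRNA livers, against 292, 281 and 260 CPM in controls. RNA was apart on both days too, and passed at day 13 (−1.16, SE 0.23, adjusted p = 0.0055) but not at day 9 (−0.56, adjusted p = 0.089).

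The footprint calls of Ech1 were lost in many settings. The day 13 call was lost with library totals (adjusted p = 0.37), with the replicate block (adjusted p = 0.075) and without any 1 of 8 of the 10 footprint libraries, all but day 9 Eif3m replicates 1 and 2 (adjusted p up to 0.32). The day 9 call was lost with library totals (adjusted p = 0.24), in DESeq2 (adjusted p = 0.055), with day 9 fitted alone (adjusted p = 0.065) and without any 1 of 7 libraries, all but day 9 Eif3m replicate 1 and the 2 day 13 controls (adjusted p up to 0.19). The day 13 RNA call was lost only without Eif3m replicate 2 (adjusted p = 0.058). Eci1 and Eci2, enoyl-CoA isomerases, and Decr1 and Decr2, the mitochondrial and peroxisomal dienoyl-CoA reductases, did not pass in any comparison. Eci2 had the lowest values of these 4, at −0.59 and −0.40 in footprints and −0.69 and −0.33 in RNA at day 13 and day 9 (adjusted p = 0.066 to 0.36).

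Electron transfer flavoprotein and its dehydrogenase pass the electrons of the dehydrogenases to the respiratory chain, and 0 of their 3 genes were called in any of the 4 comparisons. Etfa, the alpha subunit, had 340 and 297 footprint CPM in the day 13 Eif3m siRNA livers, against 355 and 339 CPM in controls. At day 9 it had 368, 381 and 416 CPM in Eif3m siRNA livers, against 457, 488 and 482 CPM in controls. The day 13 groups overlapped and the day 9 groups did not, with log2 changes of −0.13 (adjusted p = 0.65) and −0.29 (adjusted p = 0.094). Etfb, the beta subunit, ran from −0.21 to 0.18, and Etfdh from −0.40 to −0.36, with its smallest adjusted p of 0.065 in day 9 footprints.

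In peroxisomes, Ehhadh encodes the bifunctional hydratase and dehydrogenase of peroxisomal oxidation, a well-known PPAR-alpha target in rodent liver. Its footprints were 286 and 292 CPM in the day 13 Eif3m siRNA livers, against 787 and 553 CPM in controls. Day 9 footprints were 481, 283 and 372 CPM in Eif3m siRNA livers, against 723, 720 and 635 CPM in controls. The highest Eif3m siRNA value was below the lowest control on both days, with log2 changes of −1.21 at day 13 (SE 0.21, adjusted p = 0.00091) and −0.87 at day 9 (SE 0.17, adjusted p = 0.0017). Ehhadh RNA was 178 and 132 CPM in the day 13 Eif3m siRNA livers, against 321 and 308 CPM in controls. Day 9 RNA was 269, 169 and 233 CPM in Eif3m siRNA livers, against 378, 380 and 361 CPM in controls. These log2 changes were −1.01 (SE 0.21, adjusted p = 0.0070) and −0.74 (SE 0.17, adjusted p = 0.023), again with groups apart. Both footprint calls held without any 1 footprint library. The RNA calls were lost without day 13 Eif3m replicate 2 (adjusted p = 0.066) and, at day 9, without any 1 control or Eif3m replicate 2 or 3 (adjusted p up to 0.069).

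Acaa1a and Acaa1b are near-identical peroxisomal thiolase genes, and 15 of the 20 libraries hold values for each that are not whole numbers, as when reads are divided between gene copies, so the split between them is uncertain. Acaa1b RNA was 14.1 and 19.9 CPM in the day 13 Eif3m siRNA livers, against 74.3 and 34.8 CPM in controls. Its day 13 footprints were 265 and 335 CPM in Eif3m siRNA livers, against 740 and 560 CPM in controls. The groups were apart in both assays, and the RNA change of −1.71 passed (SE 0.40, adjusted p = 0.014) while the footprint change of −1.11 did not (SE 0.38, adjusted p = 0.11).

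At day 9 the Acaa1b footprints were 705, 277 and 444 CPM in Eif3m siRNA livers, against 713, 809 and 709 CPM in controls, and its RNA was 371, 179 and 321 CPM in Eif3m siRNA livers, against 709, 542 and 468 CPM in controls. Every Eif3m siRNA liver was below every control, with 1 nearly level in footprints, and neither day 9 change passed (−0.65 and −0.98, adjusted p = 0.21 and 0.081). Acaa1a behaved alike, with day 13 RNA at −1.62 (SE 0.36, adjusted p = 0.011) as the 1 comparison that passed and −0.71 in day 13 footprints (adjusted p = 0.064). Both RNA calls were lost without day 13 control replicate 1 or either day 13 Eif3m library. Over all libraries left out, Acaa1a ran from −2.11 to −0.94 (adjusted p up to 0.099) and Acaa1b from −2.18 to −1.07 (adjusted p up to 0.13). Pex11a, a peroxisome division factor, did not pass in any comparison, with log2 changes between −0.07 and 0.17.

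**Figure D3:**
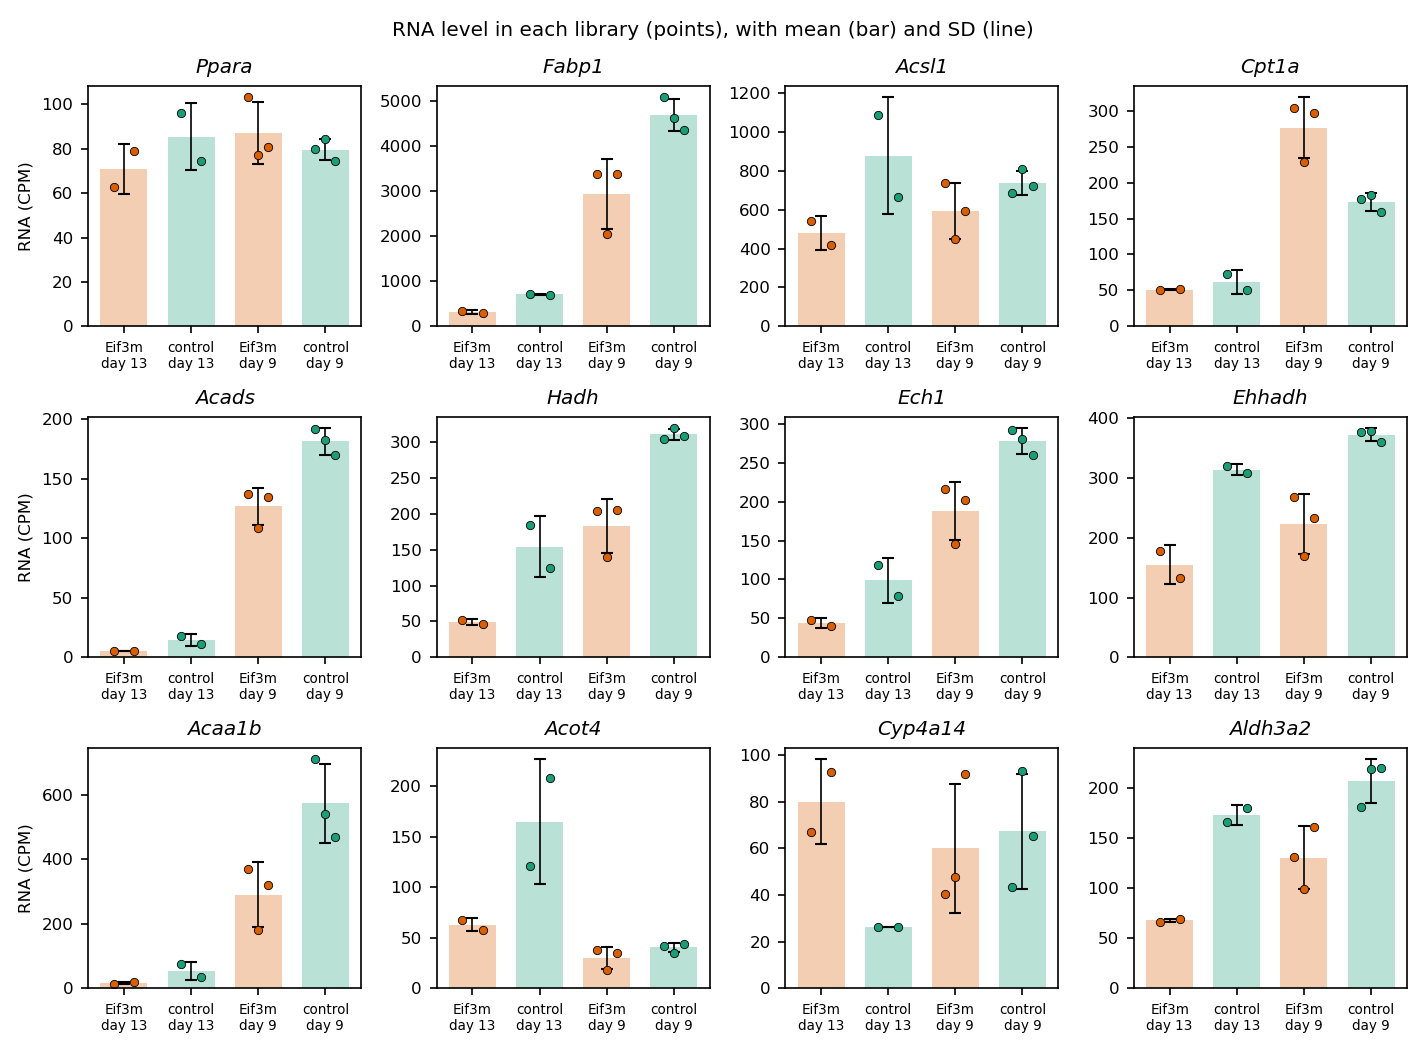
RNA CPM (y axes, from 0) of the same 12 genes in every library, with bars for the group mean and lines for the SD (n = 2 per day 13 group and 3 per day 9 group). Hadh, Ehhadh, Fabp1 and Aldh3a2 were called lower with Eif3m siRNA on both days, and Acads at day 13 alone. The day 13 libraries, made with another kit, hold far less Fabp1, Acads and Acaa1b RNA than the day 9 libraries in both siRNA groups.

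The 4 acyl-CoA thioesterases Acot1 (cytosolic), Acot2 (mitochondrial), and Acot3 and Acot4 (peroxisomal) are consecutive coding genes on chromosome 12 in the order Acot2, Acot1, Acot4, Acot3, with closely similar sequences. As the counting rule was not given, the division of reads among them is uncertain. Values that are not whole numbers were found in 19 of the 20 libraries for Acot3, 18 for Acot2 and for Acot4, and 17 for Acot1. They were also found in 18 libraries for Fabp1 and for Etfb. Acot3 had the largest changes of the 37 genes and a wide spread. Its footprints were 4.58 and 3.42 CPM in the day 13 Eif3m siRNA livers, against 53.4 and 71.4 CPM in controls. The day 9 livers gave 62.9, 5.08 and 38.0 CPM in Eif3m siRNA livers, against 130, 82.4 and 150 CPM in controls. On both days the groups were apart, yet neither change passed, at −4.07 (SE 1.31, adjusted p = 0.11) and −1.80 (SE 0.73, adjusted p = 0.17). The day 13 footprint change did pass in DESeq2, with day 13 fitted alone and without day 9 Eif3m replicate 2. Without that library the day 9 footprint change passed too.

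Acot3 RNA was 2.94 and 1.69 CPM in the day 13 Eif3m siRNA livers, against 23.2 and 62.5 CPM in controls, and at day 9 it was 45.8, 5.71 and 31.5 CPM in Eif3m siRNA livers, against 101, 65.5 and 104 CPM in controls. The day 13 change of −4.07 passed (SE 1.04, adjusted p = 0.031) and the day 9 change of −1.71 did not (SE 0.65, adjusted p = 0.18). In both assays the lowest day 9 value came from the same mouse, Eif3m replicate 2. The day 13 call was lost without any 1 of the 4 day 13 RNA libraries or day 9 Eif3m replicate 3 (−4.66 to −3.18 over the libraries left out, adjusted p up to 0.16).

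Acot4 footprints were 14.3 and 18.5 CPM in the day 13 Eif3m siRNA livers, against 47.0 and 61.8 CPM in controls. In day 9 livers, footprints were 66.3, 31.4 and 64.2 CPM in Eif3m siRNA livers, against 69.5, 58.7 and 74.2 CPM in controls. The groups were well apart at day 13 and overlapped at day 9. The day 13 change of −1.67 passed (SE 0.36, adjusted p = 0.0092) and the day 9 value of −0.33 did not (SE 0.24, adjusted p = 0.40). The difference between the days, −1.35 (SE 0.43), had an unadjusted p of 0.0084 and an adjusted p of 0.22. Acot4 RNA was 67.6 and 58.3 CPM in the day 13 Eif3m siRNA livers, against 121 and 209 CPM in controls, a change of −1.38 (SE 0.32, adjusted p = 0.013). At day 9, RNA was 38.3, 18.1 and 35.1 CPM in Eif3m siRNA livers, against 41.9, 35.3 and 44.4 CPM in controls, and did not pass. Both day 13 calls were lost without control replicate 2 or either Eif3m library of that day and assay (adjusted p up to 0.11 in footprints and 0.098 in RNA).

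Acot1 fell in 3 comparisons at low levels. Its footprints were 11.0, 3.63 and 5.54 CPM in the day 9 Eif3m siRNA livers, against 14.0, 15.2 and 13.5 CPM in controls, a change of −1.13 (SE 0.29, adjusted p = 0.014). Its RNA was 8.42, 3.31 and 6.32 CPM in the day 9 Eif3m siRNA livers, against 18.9, 18.1 and 15.8 CPM in controls, a change of −1.55 (SE 0.29, adjusted p = 0.0089). Both assays had groups apart. In day 13 RNA it fell by 2.35 (SE 0.45, adjusted p = 0.0046), and day 13 footprints, from 8 to 41.5 counts per library, did not pass (−0.96, adjusted p = 0.23). The day 9 RNA call held without any 1 RNA library, the day 9 footprint call was lost without control replicate 2 or Eif3m replicate 2 or 3 (adjusted p up to 0.079), and the day 13 RNA call without Eif3m replicate 1 (adjusted p = 0.094). Acot2 did not pass in any comparison, with log2 changes between −0.80 and 0.25.

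For omega oxidation, Aldh3a2 encodes the fatty aldehyde dehydrogenase that finishes the conversion to dicarboxylic acids. Aldh3a2 footprints were 79.6 and 104 CPM in the day 13 Eif3m siRNA livers, against 178 and 189 CPM in controls. For day 9, footprints were 229, 151 and 236 CPM in Eif3m siRNA livers, against 373, 359 and 326 CPM in controls. On both days the groups were apart, with log2 changes of −0.98 (SE 0.20, adjusted p = 0.0026) and −0.78 (SE 0.15, adjusted p = 0.0017). Its RNA was 66.6 and 68.8 CPM in the day 13 Eif3m siRNA livers, against 166 and 180 CPM in controls, and 131, 98.9 and 161 CPM in the day 9 Eif3m siRNA livers, against 181, 219 and 219 CPM in controls. RNA showed the same separation, with log2 changes of −1.36 at day 13 (SE 0.21, adjusted p = 0.0012) and −0.66 at day 9 (SE 0.16, adjusted p = 0.034). The 2 footprint calls and the day 13 RNA call held without any 1 library, and the day 9 RNA call was lost without control replicate 2 or 3 or Eif3m replicate 1 or 2 (adjusted p up to 0.15), with library totals (adjusted p = 0.065) and with the replicate block (adjusted p = 0.054).

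The fatty acid omega-hydroxylases Cyp4a10 and Cyp4a14, classical PPAR-alpha targets in mouse liver, are neighbouring genes on chromosome 4. Cyp4a14 RNA was 67.0 and 92.8 CPM in the day 13 Eif3m siRNA livers, against 26.4 and 26.3 CPM in controls, and rose by 1.59 (SE 0.40, adjusted p = 0.021). Day 13 footprints, at 21.2 and 61.4 CPM in Eif3m siRNA livers and 24.9 and 7.99 CPM in controls, overlapped and did not pass (1.47, SE 0.83, adjusted p = 0.34). The day 13 RNA groups were apart, whereas day 9 groups overlapped in both assays.

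At day 9 Cyp4a14 footprints were 27.9, 32.5 and 68.6 CPM in Eif3m siRNA livers, against 34.0, 57.8 and 50.7 CPM in controls, and its RNA was 40.3, 47.8 and 91.8 CPM in Eif3m siRNA livers, against 43.6, 93.1 and 65.2 CPM in controls. The day 13 RNA call was lost without either control or Eif3m replicate 2 of that day (adjusted p up to 0.18). Cyp4a10 was called at day 9 instead, where it fell in footprints by 0.74 (SE 0.22, adjusted p = 0.037) and in RNA by 0.62 (SE 0.16, adjusted p = 0.036). Its day 9 footprints were 71.0, 33.3 and 55.1 CPM in Eif3m siRNA livers, against 84.0, 89.2 and 90.6 CPM in controls.

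Cyp4a10 did not pass at day 13 (0.44 in footprints and 0.26 in RNA, adjusted p = 0.49 and 0.40). Its day 9 footprint call was lost without any 1 of the 3 controls, of Eif3m replicates 2 and 3, or of the 2 day 13 Eif3m libraries (adjusted p up to 0.11), with library totals and with day 9 fitted alone, and its RNA call without any 1 day 9 library but Eif3m replicate 3 (adjusted p up to 0.13) or with the replicate block. Reads of both genes were in part divided, with values that are not whole in 17 libraries for Cyp4a10 and 14 for Cyp4a14. For the RNA of the pair, the difference between the days was 0.88 for Cyp4a10 (SE 0.25, adjusted p = 0.098) and 1.76 for Cyp4a14 (SE 0.51, adjusted p = 0.11).

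None of 3 further PPAR-alpha targets was called. Angptl4, a secreted inhibitor of lipoprotein lipase, had 40.7 and 58.0 footprint CPM in the day 13 Eif3m siRNA livers, against 38.3 and 47.9 CPM in controls. At day 9 it had 87.5, 41.0 and 72.6 CPM in Eif3m siRNA livers, against 56.0, 75.8 and 36.8 CPM in controls. The groups overlapped on both days, with log2 changes between 0.18 and 0.25 in the 4 comparisons (adjusted p of 0.66 or more). Pdk4, the kinase that switches off pyruvate dehydrogenase, ran from −0.34 to 0.07. Vnn1, a pantetheinase, ran from −0.52 to 0.80 (adjusted p of 0.20 or more), both at means below 13 CPM.

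Translational efficiency was taken as the difference between footprint and RNA changes within 1 model, and was tested to ask whether ribosome occupancy moved apart from mRNA amount. It was called for 0 of the 37 genes at day 13, against 0.0211% of all 14236 genes, and for 0 at day 9, against 0% of all. At an unadjusted p under 0.05 there was 1 of the 37 at day 13 (Acads, 0.75, SE 0.30, adjusted p = 0.39), against 10.0% of all genes, and 0 at day 9, against 4.86%. DESeq2 called 0 on both days. The difference in efficiency change between the days was called for 0 of the 37, against 0% of all genes, with 0 of the 37 and 5.37% of all genes at an unadjusted p under 0.05. The median efficiency change of the 37 was 0.04 at day 13, beside 0.13 over all tested genes, and 0.05 at day 9, beside 0.03. Across the 37 genes, footprint and RNA changes had Pearson r = 0.91 and Spearman rho = 0.85 at day 13, and 0.93 and 0.92 at day 9. Without Acot3, Pearson r was 0.86 at day 13 and 0.90 at day 9. The libraries come from the same animals, and genes are not replicates, so these are descriptions.

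**Figure D4:**
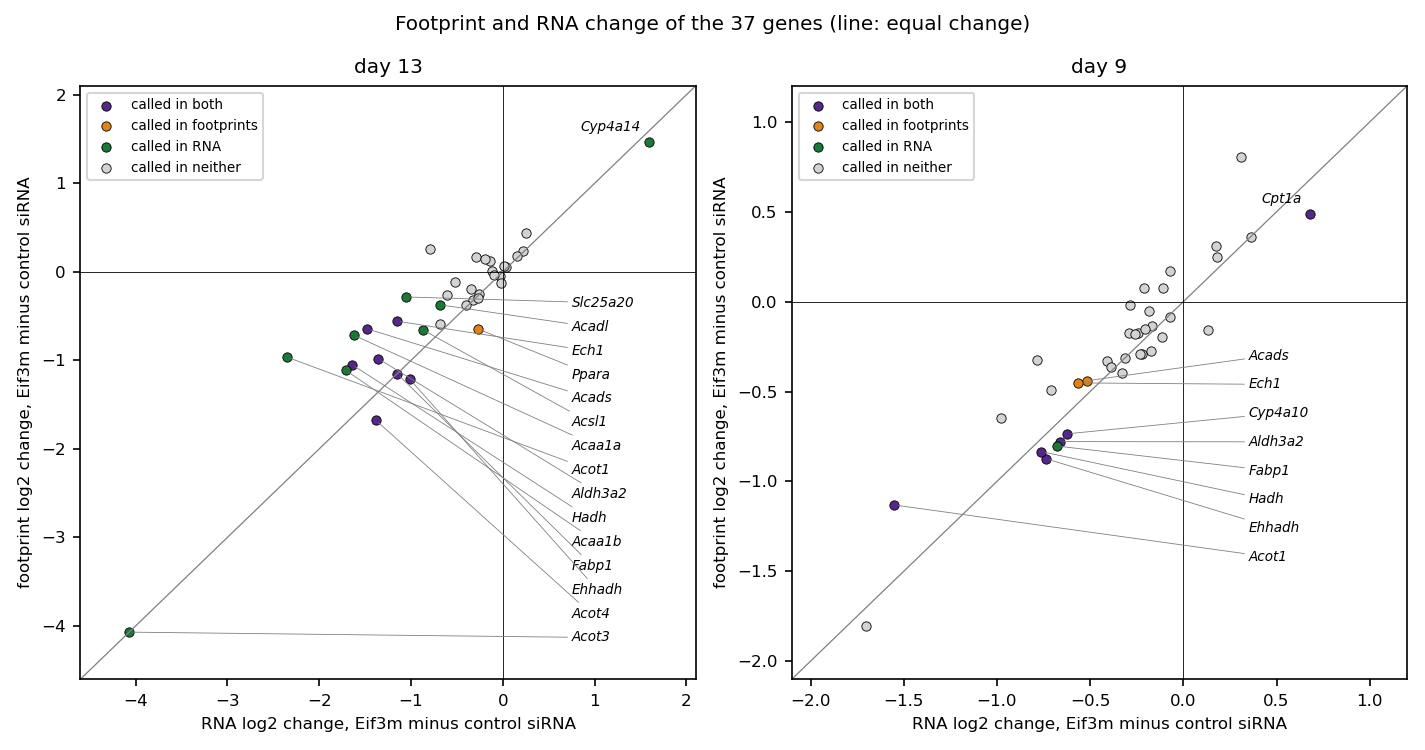
Footprint log2 change (y axis) against RNA log2 change (x axis), Eif3m minus control siRNA, of the 37 genes at day 13 and at day 9, with the line of equal change. Named genes were called in at least 1 assay; of these, Acot1, Acaa1a, Acads, Slc25a20, Acaa1b, Ech1 and Hadh lie farthest above the line at day 13, with more negative values in RNA than in footprints, and 0 of the 37 differences passed the efficiency test.

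The days were compared by testing the difference between the siRNA effects. For the 37 genes, 0 differed in footprints, against 0.819% of all genes, and 0 in RNA, against 1.23%. At an unadjusted p under 0.05 there were 2 in footprints (Acot4 and Cyp4a10), against 12.2% of all genes, and 9 in RNA, against 17.8%, and DESeq2 called 1 in footprints (Acot4) and 3 in RNA (Cpt1a, Cyp4a10 and Cyp4a14). Footprint changes at the 2 days rest on separate animals, and over the 37 genes Pearson r was 0.71 and Spearman rho 0.70, with the same sign in 28 genes, both negative in 23. Without Acot3, Pearson r was 0.55. Acads, Hadh, Slc25a20 and Aldh3a2 had larger falls in day 13 RNA than in day 9 RNA, by 0.69 to 0.96 on the log2 scale, without passing (adjusted p = 0.11 to 0.20).

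The level of these mRNAs in control livers also differed between the day 13 and day 9 RNA libraries, which were made with different kits. In controls, 7 of the 37 genes (18.9%) had RNA at least 4-fold lower at day 13 than at day 9, and 1 (2.70%), Acot4, at least 4-fold higher. Over all 7009 genes whose day 9 control RNA averaged 10 CPM or more, these shares were 22% and 2.48%. Etfb averaged 19.7 CPM in day 13 control RNA and 333 CPM in day 9 control RNA, 16.9-fold lower at day 13. Acads was 12.3-fold lower, Acaa1a and Acaa1b each 10.5-fold, Fabp1 6.59-fold, Angptl4 5.88-fold and Eci1 5.40-fold. Control footprints, made the same way on both days, ran from 0.240-fold (Cyp4a10) to 1.48-fold (Pdk4) of day 9 at day 13. Cyp4a10 footprints thus also differed by more than 4-fold, and the next lowest were Cyp4a14 (0.347-fold) and Ppara (0.487-fold). Control RNA of the other 29 genes differed by less than 4-fold between the days, and of these 9 were called lower in RNA after Eif3m siRNA (31.0%) and 1 higher (3.45%) at day 13, against 10.6% and 7.04% of all 10934 genes within the same limit. At day 9, 5 of the 29 were lower (17.2%) and 1 higher (3.45%), against 2.94% and 2.68%.

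**Figure D5:**
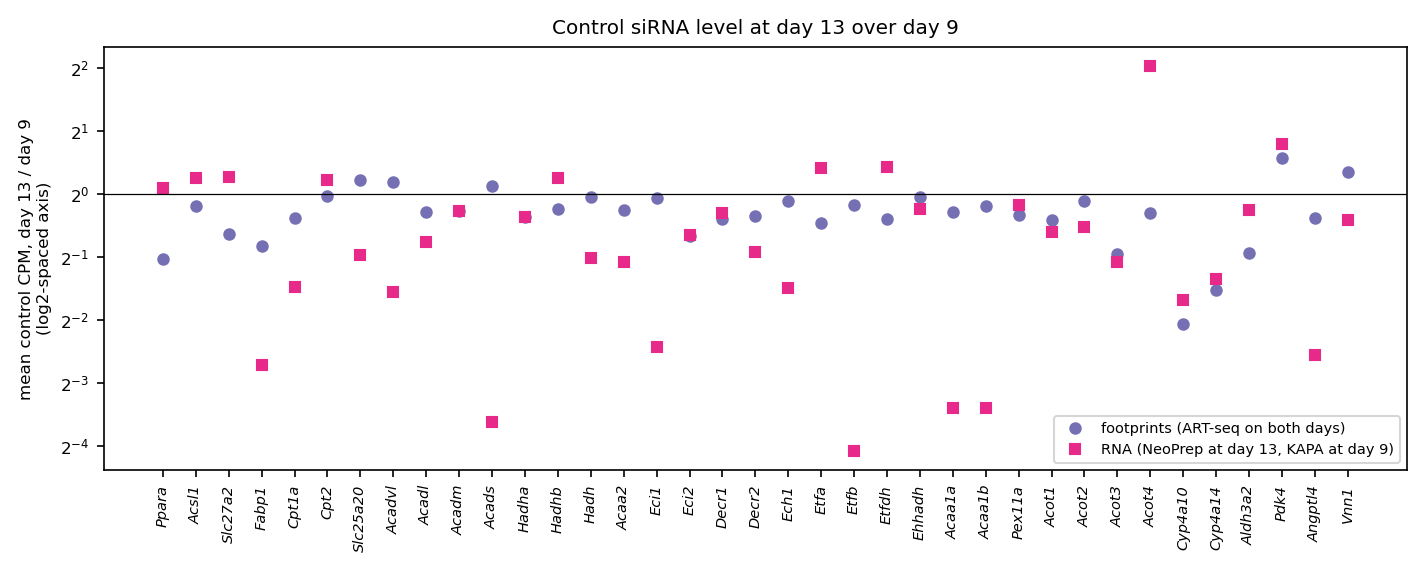
Mean control CPM at day 13 over that at day 9 (y axis, log2-spaced) for each of the 37 genes, in footprints (circles) and RNA (squares). Etfb, Acads, Acaa1a, Acaa1b, Fabp1, Angptl4 and Eci1 RNA lie more than 4-fold below 1, and Acot4 RNA lies above 4. Footprints of the genes with lower RNA lie from 0.565 (Fabp1) to 1.09 (Acads), and Cyp4a10 footprints lie at 0.240.

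Summed over the 37 genes, footprints were 1.15% and 1.09% of the day 13 Eif3m siRNA libraries, against 1.47% and 1.14% of the control libraries. The values at day 9 were 1.94%, 1.35% and 1.71% of the Eif3m siRNA libraries, against 1.98%, 2.01% and 1.76% of the controls. The RNA sums were 0.585% and 0.593% in the day 13 Eif3m siRNA livers, against 0.687% and 0.685% in controls, and 1.45%, 1.07% and 1.39% in the day 9 Eif3m siRNA livers, against 1.65%, 1.60% and 1.46% in controls. The mouse that is Eif3m replicate 2 at day 9 was the lowest in both assays. Without that footprint library, 6 of the 37 genes were called at day 9 (Hadh, Ehhadh, Aldh3a2 and Acot3 lower, Cpt1a and Hadha higher). The lower ones made up 10.8% of the 37, against 5.02% of all 12122 genes in that fit, and the higher ones 5.41%, against 5.36%. Fabp1 alone made up 0.186% to 0.807% of footprints, and much of the difference between the groups in the summed footprints was in this 1 gene. Without Fabp1 the day 13 footprint sums were 0.878% and 0.902% in the Eif3m siRNA livers, against 0.968% and 0.821% in controls. The day 9 footprint sums were then 1.34%, 1.00% and 1.13% in the Eif3m siRNA livers, against 1.17%, 1.23% and 1.04% in controls. These groups overlapped on both days, as the day 9 RNA sums without Fabp1 did, while the day 13 RNA sums stayed apart, at 0.555% and 0.561% in the Eif3m siRNA livers and 0.629% and 0.626% in controls.

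Some markers of liver cell types were called too. Of all tested genes, 6.26% and 7.90% were called lower in footprints at day 13 and day 9, and 9.87% and 3.19% in RNA. Those called higher were 6.12% and 6.84% in footprints and 6.09% and 2.48% in RNA. No marker list was tested against these shares. Summed marker levels use library totals without TMM factors, unlike the calls. The summed level of 10 hepatocyte markers in footprints was 151000 to 176000 CPM in Eif3m siRNA livers, against 224000 to 225000 CPM in controls, at day 13, where 2 of 10 fell (Ttr and Alb). The day 9 footprint sum was 143000 to 156000 CPM in Eif3m siRNA livers, against 173000 to 198000 CPM in controls, where 4 of 10 fell. Of 10 Kupffer cell markers, 6 fell in day 13 footprints (323 to 377 CPM in Eif3m siRNA livers, against 480 to 546 CPM in controls) and 3 in day 9 footprints (597 to 648 CPM in Eif3m siRNA livers, against 542 to 658 CPM in controls). In day 13 RNA, 8 of 10 Kupffer, 6 of 10 endothelial, 5 of 10 stellate and 5 of 6 erythroid markers fell. Of the hepatocyte markers, 3 of 10 fell in day 13 RNA (Hpd, Ttr and Alb), at a sum of 170000 to 190000 CPM in Eif3m siRNA livers, against 230000 to 246000 CPM in controls. In day 9 RNA 2 of 10 fell (Hpd and Ttr), at a sum of 136000 CPM in Eif3m siRNA livers, against 155000 to 161000 CPM in controls. In day 9 RNA 4 of 10 Kupffer markers fell and 1 endothelial and 1 stellate marker rose. In footprints 3 of 10 stellate markers fell at day 13 and 3 rose at day 9. Among endothelial markers 0 fell in footprints, and Lyve1 rose at day 9. Endothelial footprint sums were 760 to 805 CPM in Eif3m siRNA livers, against 636 to 659 CPM in controls, at day 13. At day 9 they were 729 to 883 CPM, against 617 to 672 CPM. The cholangiocyte marker Sox9 rose at day 13 in both assays. Cholangiocyte footprint sums there were 75.8 to 91.3 CPM, against 38.8 to 40 CPM in controls. Of neutrophil markers, Ly6g fell in day 13 RNA and day 9 footprints and S100a9 rose in day 9 footprints. The summed adipocyte markers, with Lep at 0 in every group, were at most 0.76 CPM in any library. The part of these changes in the results above was not tested, and in bulk tissue fewer cells of a type and less RNA per cell cannot be told apart.

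A further 69 genes of the same pathways were counted beside the 37, of which 66 were tested in footprints and 69 in RNA. At day 13, 10 fell (15.2%) and 4 rose (6.06%) in footprints, against 6.26% and 6.12% of all genes. In day 13 RNA, 20 fell (29%) and 3 rose (4.35%), against 9.87% and 6.09%. At day 9, 18 fell (27.3%) and 1 rose (1.52%) in footprints, against 7.90% and 6.84% of all genes. In day 9 RNA, 7 fell (10.1%) and 1 rose (1.45%), against 3.19% and 2.48%. Their median log2 changes were −0.26 and −0.27 in footprints and −0.41 and −0.29 in RNA at day 13 and day 9. The medians over all tested genes were 0.02 on both days in footprints, and −0.165 and −0.004 in RNA.

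Among them Pdk1, another pyruvate dehydrogenase kinase, fell in all 4 comparisons, by 1.10 to 1.87 on the log2 scale, and its 4 calls held in all 17 alternative settings of each. Acsl5, a further acyl-CoA synthetase, fell in footprints by 0.89 and 0.85 and in day 9 RNA by 0.65, and Lipe, the hormone-sensitive lipase, fell in footprints by 1.25 and 0.76 and in day 9 RNA by 0.89. In day 13 footprints, leaving out Eif3m replicate 2 ended the calls of Acsl5 and Lipe, and leaving out either control that of Lipe (adjusted p up to 0.36). The day 9 footprint call of Lipe was lost without Eif3m replicate 2 or with library totals (adjusted p up to 0.086). In day 9 RNA, Lipe was lost without any 1 of the 6 libraries (adjusted p up to 0.13) and Acsl5 without control replicate 1 or 3 or Eif3m replicate 1 or 2 (adjusted p up to 0.12).

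Fgf21, a secreted PPAR-alpha and stress-response target, was the 1 gene of the 69 that rose at day 9. Fgf21 footprints there were 2.85, 4.07 and 4.92 CPM in Eif3m siRNA livers, against 0.451, 0.414 and 0.299 CPM in controls, a rise of 3.28 (SE 0.45, adjusted p = 6.2e-05), and its RNA rose by 2.81 (adjusted p = 0.0032). In day 13 footprints it had 4.5 and 15.5 counts in the Eif3m siRNA libraries, against 1 and 0 counts in the controls, and did not pass. G0s2, an inhibitor of the main triglyceride lipase, rose in day 13 footprints, at 157 and 184 CPM in Eif3m siRNA livers, against 52.2 and 54.3 CPM in controls (1.68, SE 0.36, adjusted p = 0.014). That call was lost without either control or Eif3m replicate 2 (adjusted p up to 0.13). Day 13 RNA held 11.5 and 0 counts of G0s2 in the Eif3m siRNA libraries, against 4.5 and 0 counts in the controls. At day 9 the G0s2 footprint groups overlapped, at 18.9, 21.6 and 38.5 CPM in Eif3m siRNA livers and 36.7, 56.8 and 30.9 CPM in controls.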

How the data were processed

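Deposited values are expected counts per gene symbol, made by the authors from RNA-seq and ribosome profiling reads of 10 livers. Per the submitters' processing notes, cutadapt, Bowtie and Bowtie2 were used. Their versions, the build and the counting rule were not given in the sources used here. Values are whole for all but 44.3% of nonzero entries, and 100% lie within 0.01 of a multiple of 1/6. Counts were rounded. Footprint and RNA libraries were fitted separately over their 4 groups in R 4.3.3 with edgeR 4.0.16 (filterByExpr, TMM, robust quasi-likelihood F test, two-sided), and efficiency as an interaction over all 20 libraries, with TMM within each assay. CPM uses library totals times TMM factors, but summed shares and summed marker levels use library totals alone. SEs are the change over the square root of F, and replicates are separate mice per the labels. Replicates of a group had Pearson r of 0.956 to 0.993 over 16 pairs and varied beyond counting error. Footprint and RNA libraries of 1 mouse are paired by the labels (correlation of deviations 0.0569 to 0.353), and the animal block is an alternative for efficiency.

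The 37 genes, the lists and the tests were chosen with earlier results of these data known. Named with values in every library were, per role, up to 2 called genes with the largest footprint change, or else the most abundant in control footprints, and of the 69 pathway genes up to 6 called ones with the largest mean footprint change. Some of these genes are not reported here. Acot1, Cyp4a10, Hadha, Hadhb and Acox2 values were added after their values were seen. Alternatives were DESeq2 size factors, library totals, no filter, DESeq2 1.42.0, a filter of 5 mean CPM, fits of each day alone, a replicate or animal block, TMM over all libraries, and leaving out each library or animal. The pipeline was tested on simulated data. Promoter windows are RefSeq's on GRCm38.p6. No gene lengths were used, so levels are not compared between genes.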

Additional observations from a re-analysis of the deposited data

Results flagged for a closer look

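Acox2, the peroxisomal oxidase of branched chains and bile acid precursors and 1 of the 69 further pathway genes, was the 1 gene of that list whose footprint change differed between the days (edgeR, difference of 0.91 on the log2 scale, SE 0.21, adjusted p = 0.045). Its footprints were 297 and 345 CPM in the day 13 Eif3m siRNA livers, against 197 and 197 CPM in controls, a rise of 0.71 (SE 0.16, adjusted p = 0.0065). This rise did not pass without either day 13 control or Eif3m replicate 2 (0.60 to 1.03 over all settings, adjusted p up to 0.11). At day 9 they were 183, 249 and 190 CPM in Eif3m siRNA livers, against 235, 245 and 236 CPM in controls (−0.20, SE 0.13, adjusted p = 0.33). The groups were apart at day 13 and overlapped at day 9. Acox2 RNA was also called higher at day 13 (0.57, edgeR adjusted p = 0.047). That RNA call was lost with day 13 fitted alone (adjusted p = 0.089) and with the replicate block (adjusted p = 0.069). The difference did not pass with the replicate block (adjusted p = 0.081) or without any 1 of 8 of the 10 footprint libraries, all but day 9 Eif3m replicates 1 and 2 (0.80 to 1.05, adjusted p up to 0.36), and in RNA it was 0.88 (adjusted p = 0.082).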

How the results depend on the processing

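With 2 mice per group at day 13, few counts of calls were stable. Where a library was left out and 1 animal remained in a group, that animal was assumed to vary like the other groups. Leaving out a day 9 library kept at least 2 mice per group. Over these fits, 13.5% to 35.1% of the 37 were called in day 13 footprints, against 11.2% to 15.4% of all genes. In day 9 footprints the shares were 8.11% to 37.8%, against 9.27% to 18%. RNA shares were 35.1% to 43.2% at day 13, against 12.6% to 14.2%, and 2.7% to 13.5% at day 9, against 1.8% to 2.99%. The day difference gave 0% to 5.41% in footprints, against 0.427% to 1.42%, and 0% in RNA, against 0.0986% to 0.475%. Leaving out 1 library at a time gave 3 to 13 called genes of the 37 in day 13 footprints (8 with all libraries), 3 to 14 in day 9 footprints (8), 4 to 17 in day 13 RNA (15) and 1 to 12 in day 9 RNA (7). For the difference between days it gave 0 to 2 in footprints and 0 to 7 in RNA, and for efficiency 0 throughout. Over the 38 calls of single genes, 263 of 380 such values stayed past the threshold, 117 did not and 0 changed sign. Calls that held without any 1 library were those of Hadh, Ehhadh and Aldh3a2 in footprints on both days, of Hadh, Aldh3a2 and Acads in day 13 RNA and of Acot1 in day 9 RNA.

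Among the other settings, 241 of 266 values stayed past the threshold and 0 changed sign. With library totals, 5 of the 37 were called in day 13 footprints (13.5%, against 19.3% of all genes), and the median change of the 37 there was 0.038, against −0.28 with TMM. Fitting each day alone gave 13 in day 13 footprints (35.1%, against 20.9% of all genes), 6 in day 9 footprints (16.2%, against 12.7%), 13 in day 13 RNA (35.1%, against 7.10%) and 13 in day 9 RNA (35.1%, against 23.2%). In day 9 footprints Acads, Ech1 and Cyp4a10 were then lost and Fabp1 was gained. With no filter, 13 were called in day 9 footprints (35.1%, against 8.76% of all genes), 13 in day 9 RNA (35.1%, against 5.92%), 2 for the difference between days in footprints (5.41%, against 1.03%) and 9 in RNA (24.3%, against 3.87%). All genes were then the 23449 in footprints and 26743 in RNA with any count. With a minimum mean of 5 CPM, 21.6% of the 37 were called in day 13 footprints, against 17.5% of all 8733 genes. In day 9 footprints these shares were 24.3% and 18.4%. In RNA they were 40.5% against 26.1% of all 9169 genes at day 13, and 18.9% against 10.8% at day 9. No share of all genes was matched to the 37 for level. DESeq2 gave 11 in day 9 RNA (29.7%, against 10.8% of all genes), and for the difference between days 1 in footprints (2.70%, against 1.34%) and 3 in RNA (8.11%, against 5.41%). The causes of these changes were not tested. Mice of the siRNA groups with the same replicate number had correlations of deviations of −0.123 to 0.193 (1 of 10 over 0.1). With 2 mice per group at day 13, the values there are 1 value repeated (0.04 in footprints, 0.000484 in RNA). Footprint and RNA libraries of 1 mouse gave only 0.0569 or 0.0794 at day 13. Replicate numbers were thus not shown to pair mice, and at day 13 this check cannot decide it. As a replicate block they gave 6 calls in day 13 footprints (16.2%, against 10.1% of all genes), where Ppara and Ech1 were lost, 8 in day 9 footprints (21.6%, against 13.1%), 15 in day 13 RNA (40.5%, against 14.2%) and 4 in day 9 RNA (10.8%, against 4.12%), where Fabp1, Cpt1a, Cyp4a10 and Aldh3a2 were lost and Acot3 was gained, and the animal block gave 0 for efficiency. Day 13 footprint totals of 1.64 to 2.12 M in 3 of 4 libraries limit genes such as Acot1, Pdk4 and Vnn1. Restricting to genes with control RNA under 4-fold apart between days was chosen after seeing the data.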
